A study of Mus musculus with 25 samples.

Results

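The HOX gene clusters were described across 25 mouse arrays in 10 groups. Members were all genes whose platform symbol was Hoxa, Hoxb, Hoxc or Hoxd followed by a number, which gave 33 of the 18193 genes named on the array. Cluster A held 9 of them, cluster B 9, cluster C 7 and cluster D 8. For each gene the probe set with the highest mean over the 25 arrays was read, a choice that mattered for the 11 members with more than 1 probe set.

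HOX genes encode homeodomain transcription factors that sit side by side in clusters, and genes at one end of a cluster (low paralogue numbers) act towards the head while those at the other end (high numbers) act towards the tail. Cells of the adult body often keep the HOX pattern of the place they came from, and in the gut the hindgut and colon are known for the most posterior members. CDX factors bind and activate HOX genes in the embryo, Polycomb complexes keep silent HOX genes closed, and PBX and MEIS proteins bind DNA together with HOX proteins.

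The study set engineered cells beside native tissues and asked which programmes the engineered cells had taken on. Engrafted iHep were induced hepatocyte-like cells sorted by green fluorescence 12 days after transplantation into chemically damaged colons of Rag2gammac-/- mice (n = 2). Cultured iHep were independent lines made from C57BL/6J fibroblasts of E13.5 embryos with retroviral Foxa1 and Hnf4a (n = 3), so the engrafted and shRNA-treated iHep carried these transgenes too. Colon arrays held crypts of Rag2gammac-/- mice of 8 weeks (n = 2), and fetal liver came from E14.5 C57BL/6J fetuses (n = 2). Adult liver (n = 2) is labelled both as whole liver of 8-week mice and as hepatocytes released with collagenase at 10 weeks of age. Other iHep received lentiviral Cdx2 shRNA or scramble shRNA with puromycin selection (n = 4 each). Induced macrophages (iMac) came from the C10 pre-B cell line, which all iMac groups share, and were induced with estradiol. They received Ebf1 shRNA, Pou2af1 shRNA or scramble shRNA, also with puromycin selection (n = 2 each).

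Values were log2 signals, and the 40th percentile of an array lay at 5.52 to 5.80, under which a level is called background here. Some arrays stood apart from others of their group. Engrafted replicate 1 had a mean of 5.81 over 11 fibroblast markers, with 4 above the 40th percentile, and replicate 2 had 8.49 with 9 above it. The fibroblast collagen gene Col1a1 was at 7.82 and 12.82 and the leukocyte gene Ptprc at 2.94 and 6.17 in engrafted replicates 1 and 2. The leukocyte marker means were 5.39 and 7.23, but the list was mixed. Itgam, Csf1r and Lyz2 were also lower in replicate 1, and Cd3e, Cd79a and Cd74 were higher there. The 8 colon epithelium markers were all above the 40th percentile in both engrafted arrays. Their means were 12.27 and 11.68, against 7.13, 7.20 and 7.57 in iHep and 12.89 and 12.87 in colon. In iHep line 1 the fibroblast mean was 5.58 with 3 of 11 above the 40th percentile, against 7.37 and 7.55 with 8 above it in lines 2 and 3, and albumin (Alb) was at 5.69 against 9.90 and 11.59. The hepatocyte marker mean was 7.04 to 9.53 in iHep, below the 13.72 to 13.80 of adult liver and the 9.93 to 10.34 of fetal liver. The part of these markers in the HOX results was not tested. In bulk RNA, fewer cells of a type and less RNA per cell cannot be told apart.

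More HOX genes were detected in engrafted iHep, iHep and colon than in the livers and iMac. Above the 40th percentile of their array were 25 and 22 members in engrafted iHep, 20, 22 and 23 in iHep, 21 and 22 in colon, 14 and 14 in adult liver, and 15 and 15 in fetal liver. The iHep arrays with Cdx2 shRNA held 22 to 24 and those with scramble shRNA 22 to 23, while the iMac arrays held 11 to 16. Over all genes that share was 65.4% to 73.3% per array. On the probe sets read here, Hoxa7, Hoxb4, Hoxc5, Hoxc6 and Hoxc9 were above the 40th percentile in all 25 arrays, and Hoxb1, Hoxd1 and Hoxd3 in none. In colon, other probe sets had means of 4.90 for Hoxb4, 5.35 and 2.95 for Hoxc5, and 4.48 and 4.87 for Hoxc6. Hoxd11 was above the 40th percentile in 3 arrays, engrafted replicate 1 and both colon arrays. The heatmap of all members shows these blocks.

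**Figure D1:**
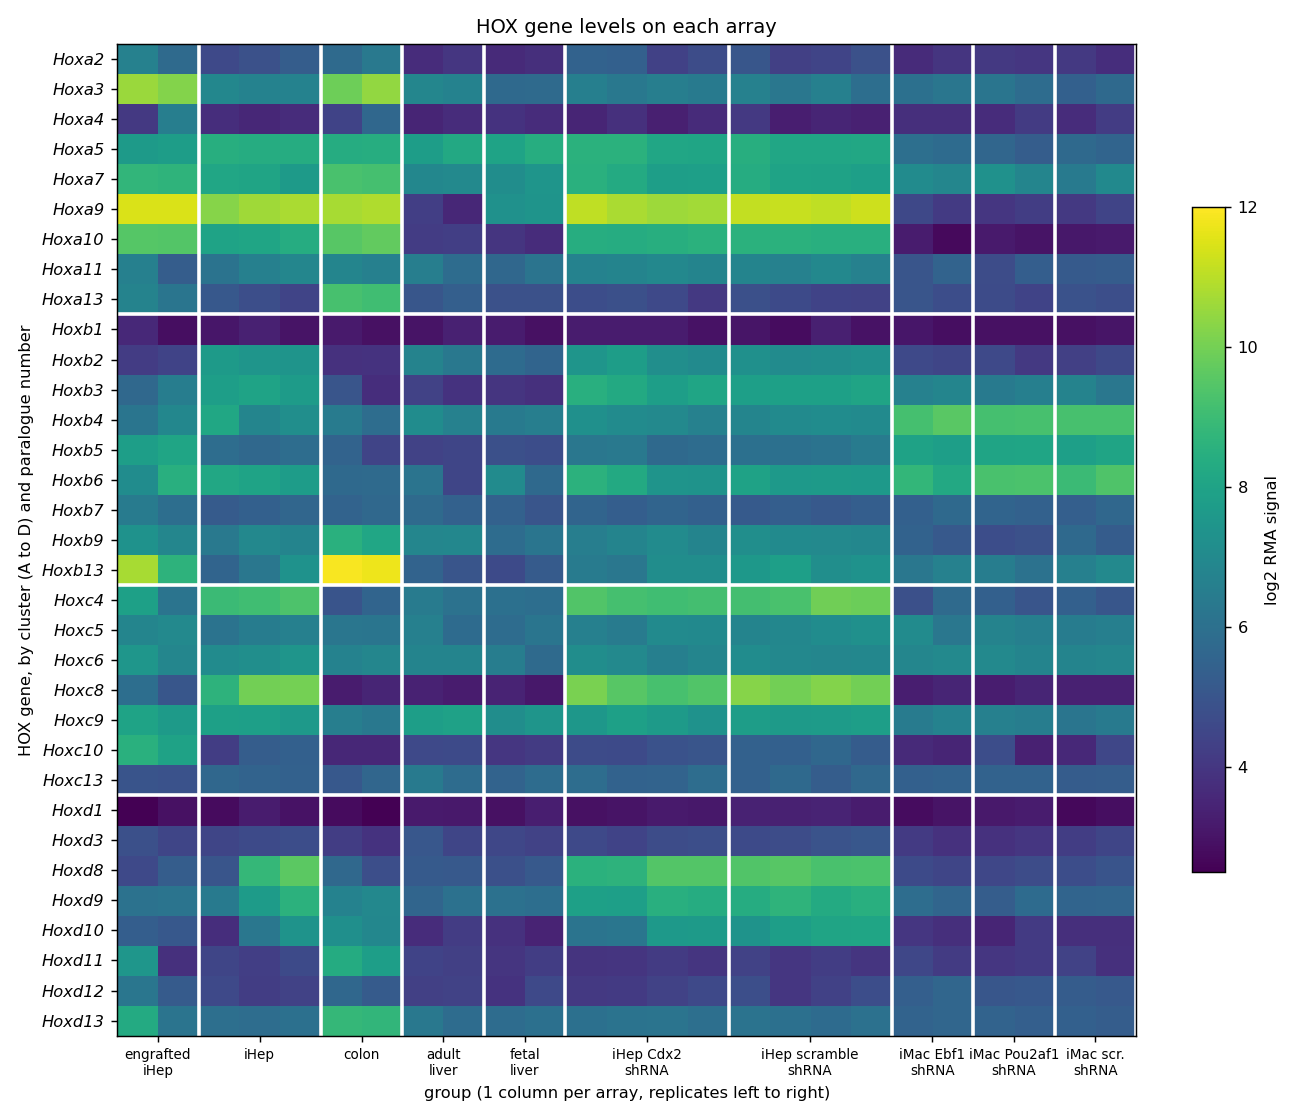
Log2 signal of the 33 HOX genes (ordered by cluster and paralogue number) in each of the 25 arrays, grouped by sample type. Colon arrays are high at the ends of clusters A, B and D, and iHep arrays are high in Hoxc4 and Hoxc8, where colon is at 5.55 or less.

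Engrafted iHep carried more RNA of cluster A genes than cultured iHep and less of Hoxc8, Hoxb2 and Hoxc4. Of 30 members tested, 12 rose and 6 fell, where 48.0% of all 15262 genes tested were called (18.2% higher and 29.7% lower; limma, Benjamini-Hochberg adjusted p under 0.05). The members had a median log2 change of 0.45, against −0.22 over all genes. In cluster A 7 of 9 rose and 1 fell, in cluster B 3 of 8 rose and 2 fell, in cluster C 1 of 7 rose and 2 fell, and in cluster D 1 of 6 rose and 1 fell. Of those that rose, Hoxa2, Hoxa4, Hoxa13 and Hoxd12 passed the filter on low signals only through engrafted and colon arrays. Hoxc10 passed it only through engrafted arrays, so these calls follow in part from the filter. For 21 of the 30 tested members the arrays of both groups did not overlap, as for 64.7% of all genes.

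Hoxa3, which acts in pharyngeal arch derivatives such as thymus and parathyroid, had 10.57 and 10.22 in engrafted iHep, against 6.89, 6.71 and 6.71 in iHep. The engrafted arrays overlapped those of colon (9.91 and 10.45), and the rise was 3.62 ± 0.22 (log2 ± SE, adjusted p = 2.61e-06). The 3 other probe sets of Hoxa3 gave differences of 0.68, 1.60 and 2.37. Hoxa10, known for patterning of the uterus and lumbar skeleton, had 9.50 and 9.46 in engrafted iHep, against 8.00, 8.08 and 8.37 in iHep, and rose by 1.33 ± 0.20 (adjusted p = 0.000502). Hoxa9, a regulator of blood progenitors, had 11.47 and 11.45 in engrafted iHep, against 10.28, 10.66 and 10.81 in iHep. It rose by 0.87 ± 0.25 (adjusted p = 0.0178). Hoxa10 and Hoxa9 thus differed by little among replicates, and their groups did not overlap.

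Hoxa13, a gene of the hindgut, genital tubercle and digits, had 6.75 and 6.21 in engrafted iHep, against 5.11, 4.77 and 4.45 in iHep. All iHep arrays were under the 40th percentile, so the rise of 1.70 ± 0.26 (adjusted p = 0.000558) is limited by background. Hoxb13, a posterior gene known for its expression in prostate and distal colon, had 10.75 and 8.66 in engrafted iHep, against 5.58, 6.27 and 7.34 in iHep. The groups did not overlap although both were spread widely, and the rise was 3.31 ± 0.62 (adjusted p = 0.00188). Hoxb5, which acts in lung and in neural crest cells of the gut, had 7.82 and 8.08 in engrafted iHep, against 5.89, 5.70 and 5.90 in iHep, a rise of 2.12 ± 0.29 (adjusted p = 0.000333). Hoxa2, Hoxa4, Hoxa7, Hoxb7 and Hoxd12 also rose, by 0.76 to 1.65. Hoxa4 was above the 40th percentile in engrafted replicate 2 (6.58) but not in replicate 1 (4.08).

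Hoxc8, a gene of brachial motor neurons and the thoracic skeleton, had 5.94 and 5.06 in engrafted iHep, against 8.65, 9.96 and 10.01 in iHep, and fell by 4.04 ± 0.42 (adjusted p = 6.04e-05). Hoxb2, a hindbrain gene, had 4.19 and 4.41 in engrafted iHep, against 7.68, 7.44 and 7.40 in iHep, and fell by 3.21 ± 0.21 (adjusted p = 4.6e-06). Both engrafted arrays were under the 40th percentile for Hoxb2, so the size of its fall is limited by background. Hoxc4 (7.90 and 6.16 in engrafted iHep, against 8.96, 9.09 and 9.35 in iHep) fell by 2.10 ± 0.43, and Hoxb3, Hoxd9 and Hoxa5 fell by 1.73, 1.44 and 0.68. The other Hoxa5 probe set gave −0.17, and with probe sets averaged Hoxa5 was not called (−0.42, limma adjusted p = 0.202). Hoxd8 was not called (−2.85, adjusted p = 0.0513), at 4.61 and 5.30 in engrafted iHep against 5.00, 8.83 and 9.60 in iHep lines 1, 2 and 3. The 12 members with no call lay between −2.85 and 1.26. Without line 1, Hoxd8 was at −4.25 (adjusted p = 5.85e-05) and Hoxd10 at −1.61 (adjusted p = 0.00789), both called. Calls of Hoxa2, Hoxa4, Hoxa5, Hoxa9, Hoxb7 and Hoxd9 were each lost when some single array was left out. Without engrafted replicate 1, Hoxd12 no longer passed the filter on low signals.

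Set against colon, the tissue they were placed in, engrafted iHep were higher in 4 cluster C genes and 3 cluster B genes and lower in Hoxa13 and Hoxb9. Of 30 members, 7 were higher and 2 lower, where 16.8% of all genes were called (7.10% higher and 9.66% lower), and the median log2 difference was 0.24 against 0.01 over all genes. For 23 of the 30 the arrays of both groups did not overlap, as for 59.9% of all genes. Hoxc10, a gene of lumbar motor neurons and hindlimb, had 8.52 and 7.97 in engrafted iHep, against 3.57 and 3.54 in colon, with 4.22, 5.31 and 5.41 in cultured iHep. It was higher than in colon by 4.69 ± 0.38 (adjusted p = 0.000109) and higher than in iHep by 3.26 ± 0.34 (adjusted p = 6.79e-05), 2 comparisons that share the engrafted arrays. Among the 11 arrays of this model, Hoxc10 was above the 40th percentile only in the engrafted arrays and passed the filter through both of them. Both calls thus follow in part from the filter, and the iHep and colon values at background leave their sizes inexact. The highest Hoxc10 value among the other 23 arrays was 5.68, in an iHep scramble array. Hoxb5 was also above both, at 7.82 and 8.08 in engrafted iHep against 5.52 and 4.44 in colon (2.97 ± 0.32, adjusted p = 0.000537).

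Hoxc8, Hoxc4 and Hoxb3 were intermediate on the probe sets read here, lower than in iHep and higher than in colon by 2.14 ± 0.46, 1.76 ± 0.47 and 1.75 ± 0.41. The other Hoxb3 probe set gave −1.26 against iHep but only 0.31 against colon, with means of 5.48 in engrafted iHep and 5.17 in colon. Hoxc9, a gene of the thoracic level, had 8.01 and 7.67 in engrafted iHep, against 6.56 and 6.30 in colon, and was higher by 1.41 ± 0.23 (adjusted p = 0.00408). Its iHep values of 7.90, 7.88 and 7.60 overlapped those of engrafted iHep. Hoxb6 was higher than in colon by 2.04 ± 0.62 (adjusted p = 0.0498), with 7.12 and 8.50 in the engrafted arrays. Hoxa13 remained below colon, at 6.75 and 6.21 in engrafted iHep against 9.24 and 9.08 in colon (−2.68 ± 0.28, adjusted p = 0.000484). Hoxb9, another gene of the thoracic level, was lower too (−1.22 ± 0.29, adjusted p = 0.0191). The calls of Hoxb5, Hoxc9 and Hoxa13 held when any single array was left out, and those of Hoxb3, Hoxb6, Hoxb9, Hoxc4 and Hoxc8 did not. Hoxc10 could not be tested without either engrafted array, since it then no longer passed the filter.

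The 2 engrafted arrays differed in Hoxd11, Hoxd13 and Hoxb13. Hoxd13, a digit and hindgut gene, had 8.29 and 6.14 in engrafted iHep, against 8.82 and 8.75 in colon and 5.98, 5.90 and 5.99 in iHep. Hoxd11, a gene of kidney and forearm, had 7.49 and 3.80 in engrafted iHep, against 8.36 and 7.82 in colon and 4.47, 4.27 and 4.62 in iHep. In both genes engrafted replicate 1 was close to colon and replicate 2 was at the iHep level. Replicate 1 was also the array with the lower fibroblast and leukocyte marker means, though some leukocyte markers were higher in it. With both arrays, Hoxd13 (−1.57, adjusted p = 0.074), Hoxd11 (−2.44, adjusted p = 0.0874) and Hoxb13 (−2.13, adjusted p = 0.0605) were not called against colon. Without engrafted replicate 1 they were at −2.65 (adjusted p = 0.000213), −4.29 (adjusted p = 4.43e-05) and −3.18 (adjusted p = 0.00607). Without engrafted replicate 2, Hoxd11 and Hoxd13 were called higher than in iHep, at 3.04 (adjusted p = 4.83e-05) and 2.33 (adjusted p = 9.52e-05). In these fits the lone array is assumed to vary like the other groups.

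**Figure D2:**
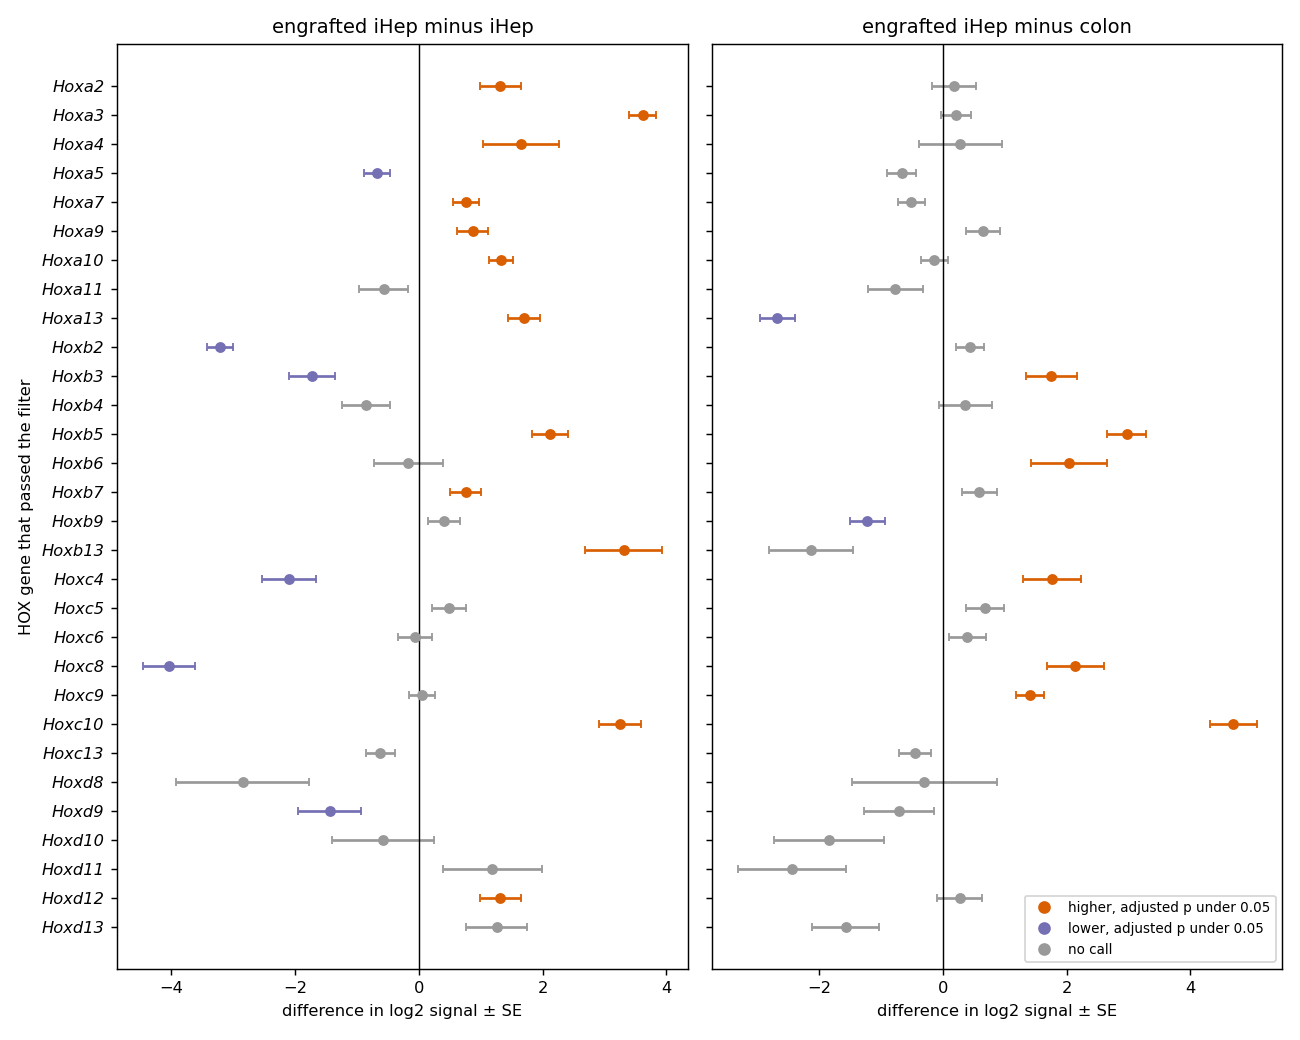
Log2 difference ± SE of engrafted iHep minus iHep (left) and minus colon (right) for the 30 HOX genes tested, coloured by limma's call. Hoxc10 and Hoxb5 lie right of 0 in both panels, and Hoxa13 lies at 1.70 in the left panel and −2.68 in the right.

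As a description, each engrafted array was placed between the iHep mean (0) and the colon mean (1) for the 19 members called between iHep and colon. Replicate 1 had a median position of 0.63 and lay nearer colon in 12 members, and replicate 2 had 0.42 and lay nearer colon in 8. Both were nearer colon in 7 members and both nearer iHep in 6. Cluster A had medians of 0.91 and 0.75 in replicates 1 and 2, cluster B 0.61 and 0.38, cluster C 0.08 and 0.41 and cluster D 0.84 and 0.07. Hoxc10 (−2.48 and −2.10) and Hoxb5 (−2.33 and −2.64) lay outside the span, on the far side of iHep. These spans lay at background for Hoxc10 (means of 4.98 in iHep and 3.56 in colon) and near it for Hoxb5 (5.83 and 4.98). The size of both positions is therefore inexact.

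Cultured iHep had lower signals than colon in posterior members and in Hoxa3, and higher signals in members of clusters B and C. Of 30 members, 9 were higher in iHep and 10 lower, where 53.6% of all genes were called (32.3% higher and 21.3% lower). The members had a median of −0.09, against 0.22 over all genes, and for 21 of them the groups did not overlap, as for 77.7% of all genes. Of the 14 tested members with paralogue numbers 9 to 13, 2 were higher and 7 lower. In cluster A 0 of 9 were higher and 5 lower, in cluster B 5 of 8 higher and 2 lower, in cluster C 4 of 7 higher and 0 lower, and in cluster D 0 of 6 higher and 3 lower. Among those lower, Hoxa2, Hoxa13, Hoxd11 and Hoxd12 passed the filter only through colon and engrafted arrays, so their calls follow in part from it. Hoxc10, among those higher, was under the 40th percentile in every iHep and colon array.

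Hoxb13 had 5.58, 6.27 and 7.34 in iHep, against 11.91 and 11.76 in colon (−5.44 ± 0.62, adjusted p = 8.16e-05). Hoxa13 had 5.11, 4.77 and 4.45 in iHep, against 9.24 and 9.08 in colon (−4.39 ± 0.26, adjusted p = 1.3e-06), with the iHep arrays at background. Hoxd11 and Hoxd13 differed by −3.64 ± 0.80 and −2.83 ± 0.49, and Hoxa3, an anterior member of the same cluster as Hoxa13, by −3.41 ± 0.22. Hoxc8 had 8.65, 9.96 and 10.01 in iHep, against 3.24 and 3.48 in colon, and was higher in iHep by 6.18 ± 0.42 (adjusted p = 3.03e-06), with colon at background. Hoxc4, Hoxb2 and Hoxb3 were higher by 3.86 ± 0.43, 3.64 ± 0.21 and 3.48 ± 0.37. Hoxa9 was high on both sides, at 10.28 to 10.81 in iHep and 10.74 and 10.87 in colon, and was not called. Its other probe set gave −1.48, and with probe sets averaged Hoxa9 was called lower in iHep (−0.85, limma adjusted p = 0.00633). Hoxc5 (0.19) and Hoxc6 (0.45) were not called either on the probe set read here, while another Hoxc5 probe set gave 4.22 and 2 others of Hoxc6 gave 3.04 and 2.49. The plot by paralogue number shows the crossing of the iHep and colon lines within clusters B and D.

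**Figure D3:**
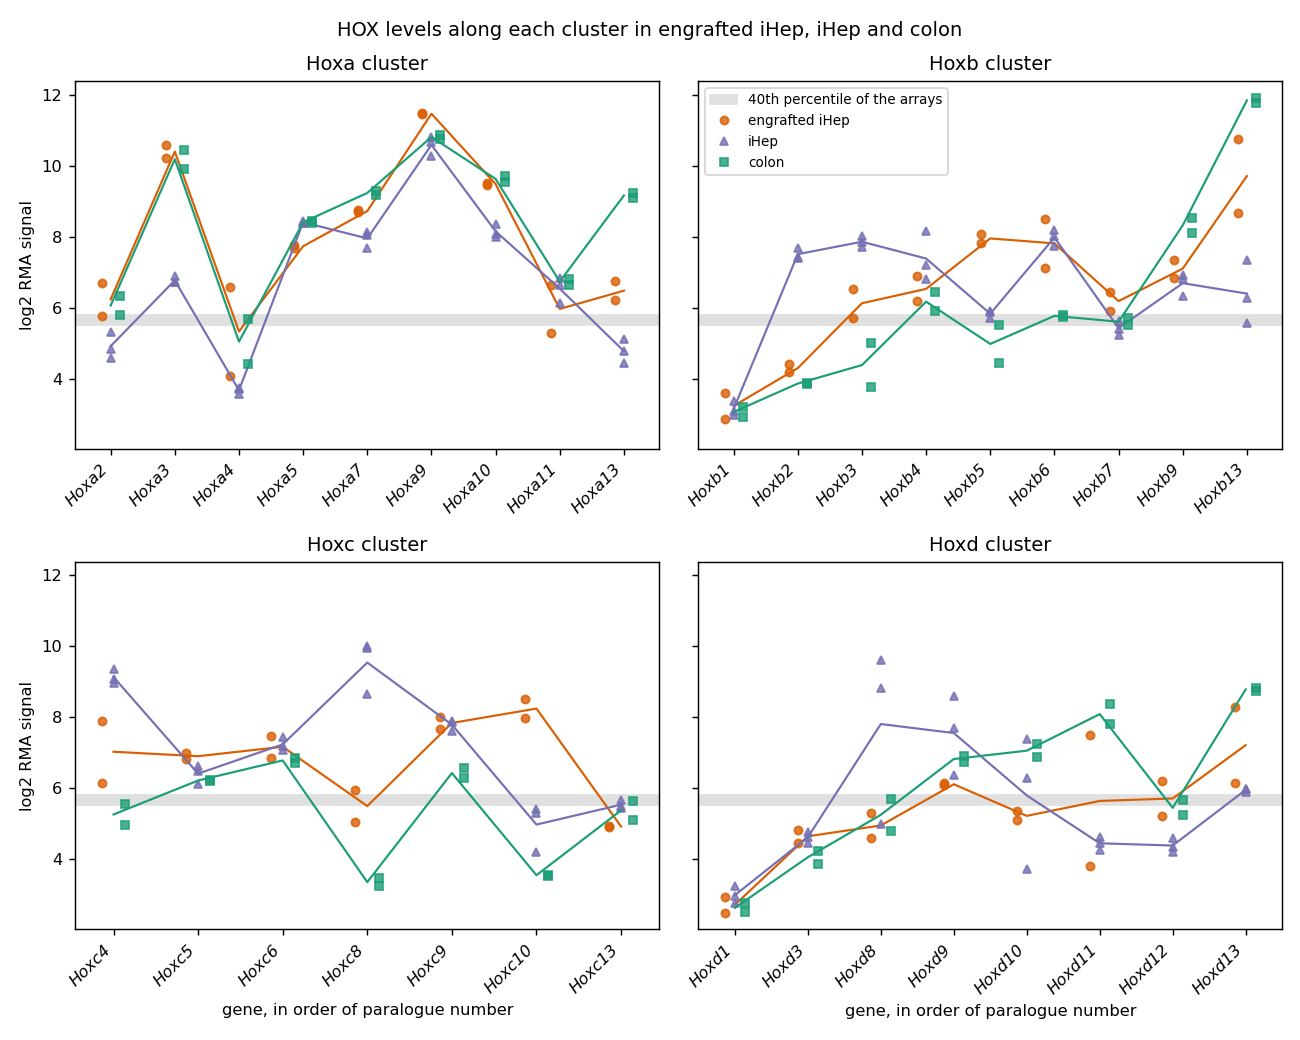
Log2 signal by paralogue number in each cluster for engrafted iHep, iHep and colon, with points for arrays and lines for group means. Colon reaches 11.76 to 11.91 at Hoxb13 and 9.08 to 9.24 at Hoxa13, and iHep lies at 7.34 or less at both.

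The sequences just before the starts of posterior members are shown because Hoxa13, Hoxd11 and Hoxd13 were lower together in iHep against colon. Windows of 250 bases before the gene start came from RefSeq (GRCm38.p6), which gave 24 windows for 22 HOX symbols and matched 19 of the 33 members. TTTATG, the core that CDX factors recognise, and TGATNNAT, of the type bound by PBX with HOX, were searched on both strands, and capitals mark matches. TTTATG was in 5 of the 24 HOX windows (20.8%) and in 10.8% of all 32851 windows, and TGATNNAT in 4 (16.7%) and in 7.7%. No marked match overlapped another. The Hoxa13 window (chr6:52260881-52261130, minus strand) held 35 CpG and the Hoxd13 window (chr2:74667975-74668224, plus strand) 31, where the median was 12.5 over HOX windows and 6 over all windows, and neither held a match. Hoxd11 has an upstream start (chr2:74679308-74679557, plus strand) with TTTATG 87 to 82 bases before it on the reverse strand, and another (chr2:74682073-74682322, plus strand) with TGATNNAT 73 to 66 bases before it on the reverse strand. The window of the upstream Hoxd11 start held 2 CpG and that of the other 20, so CpG content varied among these windows.
Hoxa13: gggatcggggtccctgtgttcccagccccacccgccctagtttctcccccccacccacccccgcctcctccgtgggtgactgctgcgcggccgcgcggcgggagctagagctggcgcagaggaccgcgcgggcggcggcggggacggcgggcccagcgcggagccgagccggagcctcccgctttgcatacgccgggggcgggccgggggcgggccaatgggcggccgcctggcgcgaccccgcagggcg
Hoxd13: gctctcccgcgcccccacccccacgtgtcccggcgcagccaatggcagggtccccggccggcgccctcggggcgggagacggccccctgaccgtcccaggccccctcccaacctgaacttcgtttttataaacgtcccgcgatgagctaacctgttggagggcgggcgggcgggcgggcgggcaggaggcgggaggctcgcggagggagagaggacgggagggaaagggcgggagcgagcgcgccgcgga
Hoxd11, upstream start: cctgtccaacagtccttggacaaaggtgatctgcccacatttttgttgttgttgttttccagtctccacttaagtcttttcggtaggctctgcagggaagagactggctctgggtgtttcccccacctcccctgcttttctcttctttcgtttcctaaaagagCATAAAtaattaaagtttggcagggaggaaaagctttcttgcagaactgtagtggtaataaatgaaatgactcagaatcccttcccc
Hoxd11, other start: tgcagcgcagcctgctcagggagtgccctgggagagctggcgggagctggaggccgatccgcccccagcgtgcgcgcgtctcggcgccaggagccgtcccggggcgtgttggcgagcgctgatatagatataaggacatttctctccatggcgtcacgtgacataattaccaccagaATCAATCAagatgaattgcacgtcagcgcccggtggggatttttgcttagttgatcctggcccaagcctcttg

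Several HOX genes, led by Hoxc8 and Hoxa10, were higher in iHep than in both livers. Against adult liver 11 of 30 members were higher and 0 lower, where 55.9% of all genes were called (37.8% higher and 18.2% lower), with a median of 0.47 against 0.26 over all genes. The share of members higher was thus near that of all genes, and 15 members did not overlap, where 73.6% of all genes did not. Hoxc13 became a lower call against adult liver with probe sets averaged per gene (−0.59, adjusted p = 0.0485) or without adult liver replicate 2 (−0.85, adjusted p = 0.032). Against fetal liver 12 were higher and 0 lower, where 33.0% of all genes were called (19.9% higher and 13.1% lower), with a median of 0.96 against 0.05, and 19 members did not overlap, where 62.4% of all genes did not. These comparisons share the iHep arrays. Hoxa2, counted as higher in both, was at background in every iHep, adult liver and fetal liver array. Its means were 4.92 in iHep, 3.85 in adult liver and 3.72 in fetal liver. Hoxa2 passed the filter on low signals only through engrafted and colon arrays, so both calls follow in part from it. Both calls were lost with the replicate block and when iHep line 3 was left out.

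Hoxc8 was at 8.65, 9.96 and 10.01 in iHep, against 3.42 and 3.24 in adult liver and 3.44 and 3.13 in fetal liver, higher by 6.21 ± 0.42 (adjusted p = 1.86e-06) and 6.26 ± 0.42 (adjusted p = 4.61e-06). Hoxa10 was at 8.00, 8.08 and 8.37 in iHep, against 4.17 and 4.26 in adult liver and 3.95 and 3.70 in fetal liver, higher by 3.94 ± 0.20 and 4.33 ± 0.20. In both genes every liver array was at background, so the differences have no exact size. Hoxb3 (3.73 ± 0.37 against adult liver and 3.97 ± 0.37 against fetal liver) and Hoxc4 (2.85 ± 0.43 and 3.16 ± 0.43) were higher in both as well, though the other probe set of Hoxb3 gave 0.07 against adult liver. Hoxa9 was higher than in fetal liver by 3.23 ± 0.25 (adjusted p = 1.25e-05), though its other probe set gave 0.34.

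The chosen Hoxa9 probe set gave 4.28 and 3.56 in adult liver, against 7.30 and 7.41 in fetal liver, so that Hoxa9 fell by 3.44 ± 0.28 (adjusted p = 7.94e-06). Its other probe set gave a difference of 0.34 there, in the opposite direction. Between iHep and adult liver the chosen probe set gave 6.67 and the other −0.01. The direction of the Hoxa9 difference between the livers, and its presence between iHep and adult liver, thus depended on the probe set. In the same comparison of adult with fetal liver, Hoxa3, Hoxb9 and Hoxb2 rose by 1.02 ± 0.24, 0.88 ± 0.29 and 0.84 ± 0.23. That was 3 higher and 1 lower of 30, where 49.3% of all genes were called (18.2% higher and 31.1% lower), with a median of 0.28 against −0.16, and 15 members did not overlap, where 76.9% of all genes did not. Hoxa3 was not called with its probe sets averaged (0.11, adjusted p = 0.712), and Hoxb9 and Hoxb2 lost their calls when some single arrays were left out. Without fetal liver replicate 2, the count of members higher in iHep than in fetal liver was 7, and without iHep line 1 it was 16. Hoxa5, a gene of lung and foregut mesoderm, was read as not called between iHep and adult liver (0.40), while another probe set gave 2.55.

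Colon carried more RNA of posterior members and of the anterior Hoxa3 than adult liver, and less of Hoxb2 and Hoxc9. Of 30 members, 12 were higher in colon and 4 lower, where 60.7% of all genes were called (35.9% higher and 24.8% lower), with a median of 0.54 against 0.20, and 22 members did not overlap, where 83.4% of all genes did not. Of the 14 members with paralogue numbers 9 to 13, 9 were higher and 3 lower, and of the 12 numbered 4 to 8, 1 was higher and 0 lower. Of the 4 tested members numbered 1 to 3, 2 were higher and 1 lower. Among those higher, Hoxa2, Hoxa13, Hoxd11 and Hoxd12 passed the filter on low signals only through colon and engrafted arrays. Hoxc10, among those lower, passed it only through engrafted arrays. It was at background in colon (3.57 and 3.54) and adult liver (4.59 and 4.65). Its call was lost when any single array of these groups was left out. Calls of Hoxc13, Hoxd10 and Hoxd12 were each lost when some single array was left out. Hoxb13 had 11.91 and 11.76 in colon, against 5.54 and 5.01 in adult liver (6.56 ± 0.68, adjusted p = 2.8e-05). Hoxa10, Hoxa13, Hoxd11 and Hoxd13 were higher by 5.41 ± 0.22, 3.96 ± 0.28, 3.73 ± 0.88 and 2.72 ± 0.54. Hoxa9 was higher by 6.89, though its other probe set gave 1.48. Hoxa3 was higher by 3.39, and its other probe sets gave 0.34, 3.55 and 1.66. Hoxb2 was lower, at 3.85 and 3.88 in colon against 6.76 and 6.31 in adult liver (−2.67 ± 0.23, adjusted p = 9.52e-06), and so was Hoxc9 (−1.45 ± 0.23).

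**Figure D4:**
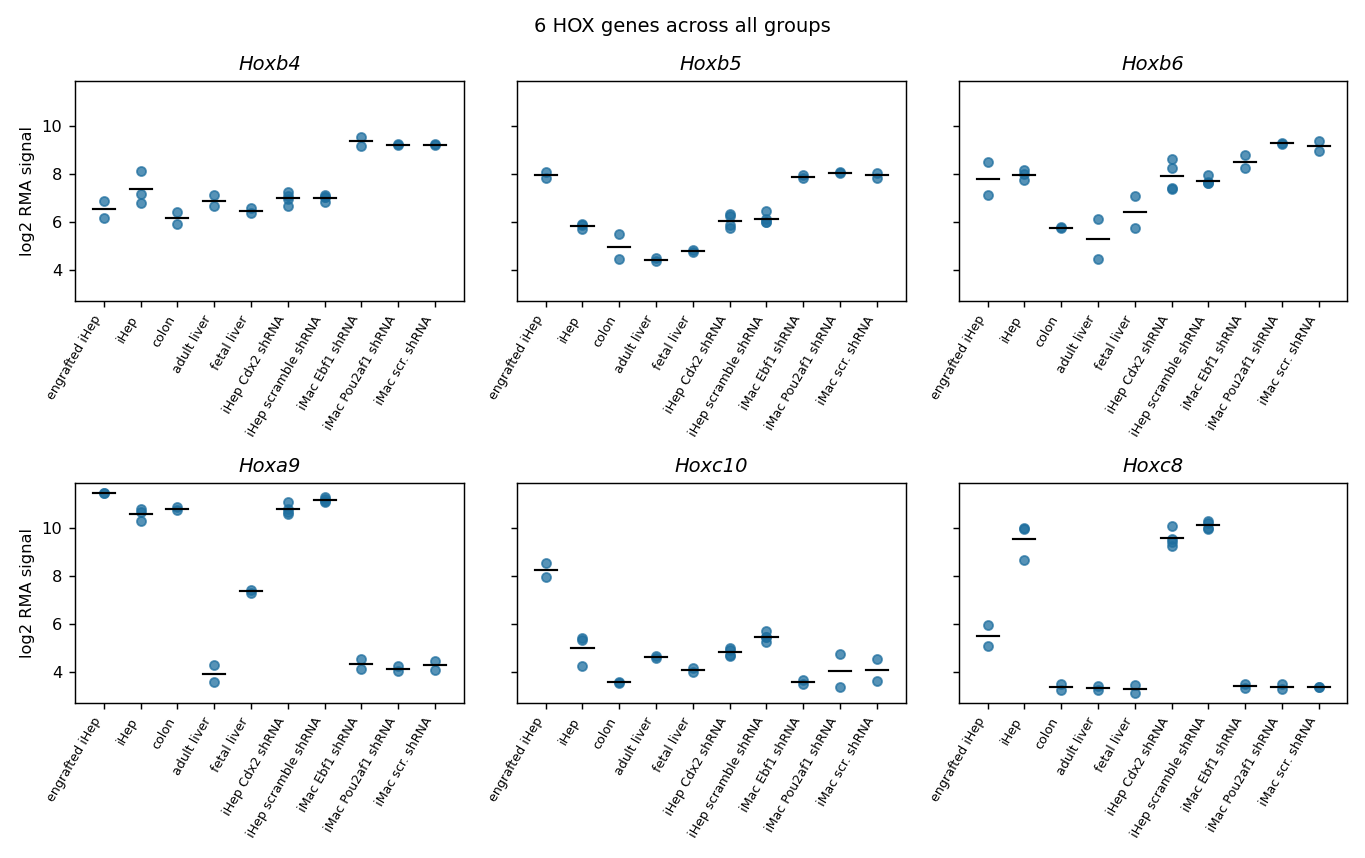
Log2 signal of selected HOX genes in each array of the 10 groups, with a line at each group mean. Hoxc10 in engrafted iHep (8.52 and 7.97) stands above the other 23 arrays, whose highest value is 5.68, and Hoxb4 in iMac is at 9.19 to 9.56.

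The CDX genes crossed these comparisons. Cdx1 was at 10.01 and 9.56 in engrafted iHep, against 4.63, 4.66 and 4.40 in iHep and 11.08 and 11.00 in colon, and Cdx2 at 11.10 and 11.05 in engrafted iHep, against 10.33, 8.97 and 9.17 in iHep and 11.70 and 11.63 in colon.

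With Cdx2 shRNA, no HOX gene passed the threshold in iHep. Cdx2 itself, the intestinal regulator targeted, was at 7.78, 8.02, 8.01 and 8.03 with its shRNA, against 9.14, 9.42, 8.96 and 8.98 with scramble, and fell by 1.16 ± 0.12 (limma adjusted p = 0.00397). The remaining Cdx2 signal was above that of adult liver (5.70 and 6.05). Of 23 members tested, 0 were called in limma, where 2.21% of all 13650 genes were (0.535% higher and 1.68% lower), and the lowest adjusted p was 0.148. At an unadjusted p under 0.05, 4 members were lower and 0 higher, against 15.7% of all genes in either direction. The median log2 difference of the members was −0.08, against 0.00 over all genes, and in 1 of the 23, Hoxb13, the groups did not overlap, where 10.9% of all genes did not. With same-numbered arrays as a replicate block, limma called 0 of 23 members (lowest adjusted p = 0.0676, Hoxd10) and 5.57% of all genes, and 5 members had an unadjusted p under 0.05. In that limma fit Hoxd10 was at −0.92 ± 0.22, Hoxc8 at −0.53 ± 0.13 (adjusted p = 0.0709) and Hoxa9 at −0.39 ± 0.11 (adjusted p = 0.0945). Hoxb13 was at −0.73 ± 0.27 (adjusted p = 0.175). Errors and p-values of single genes below are from the fit without the block.

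Hoxb13 had 6.45, 6.25, 7.17 and 7.17 with Cdx2 shRNA, against 7.57, 7.85, 7.19 and 7.34 with scramble (−0.73 ± 0.24, adjusted p = 0.175). The difference lay in pairs 1 and 2, at −1.12, −1.60, −0.02 and −0.17 for the same-numbered arrays 1 to 4. Hoxd10, a limb and lumbar gene, had 6.15, 6.22, 7.63 and 7.66 with Cdx2 shRNA, against 7.37, 7.82, 8.04 and 8.10 with scramble (−0.92 ± 0.38, adjusted p = 0.278), with pair differences of −1.22, −1.60, −0.41 and −0.44. Hoxd8 differed in sign between pairs, at −0.87, −0.89, 0.19 and 0.12.

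Hoxa9 had 11.10, 10.79, 10.60 and 10.68 with Cdx2 shRNA, against 11.13, 11.22, 11.08 and 11.29 with scramble (−0.39 ± 0.12, adjusted p = 0.148). Hoxc8 had 10.10, 9.54, 9.25 and 9.43 with Cdx2 shRNA, against 10.29, 9.98, 10.22 and 9.97 with scramble (−0.53 ± 0.18, adjusted p = 0.181). The groups overlapped in each gene through Cdx2 shRNA array 1. Without that array, Hoxa9 at −0.49 (adjusted p = 0.0454) and Hoxc8 at −0.70 (adjusted p = 0.0348) were called lower. Hoxc10 and Hoxd1 were left out of the test by the filter on low signals, and neither overlapped between groups. Hoxc10 was at 5.01 or less with Cdx2 shRNA and 5.25 or more with scramble, and with no filter it was called lower at −0.64 (adjusted p = 0.0402).

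**Figure D5:**
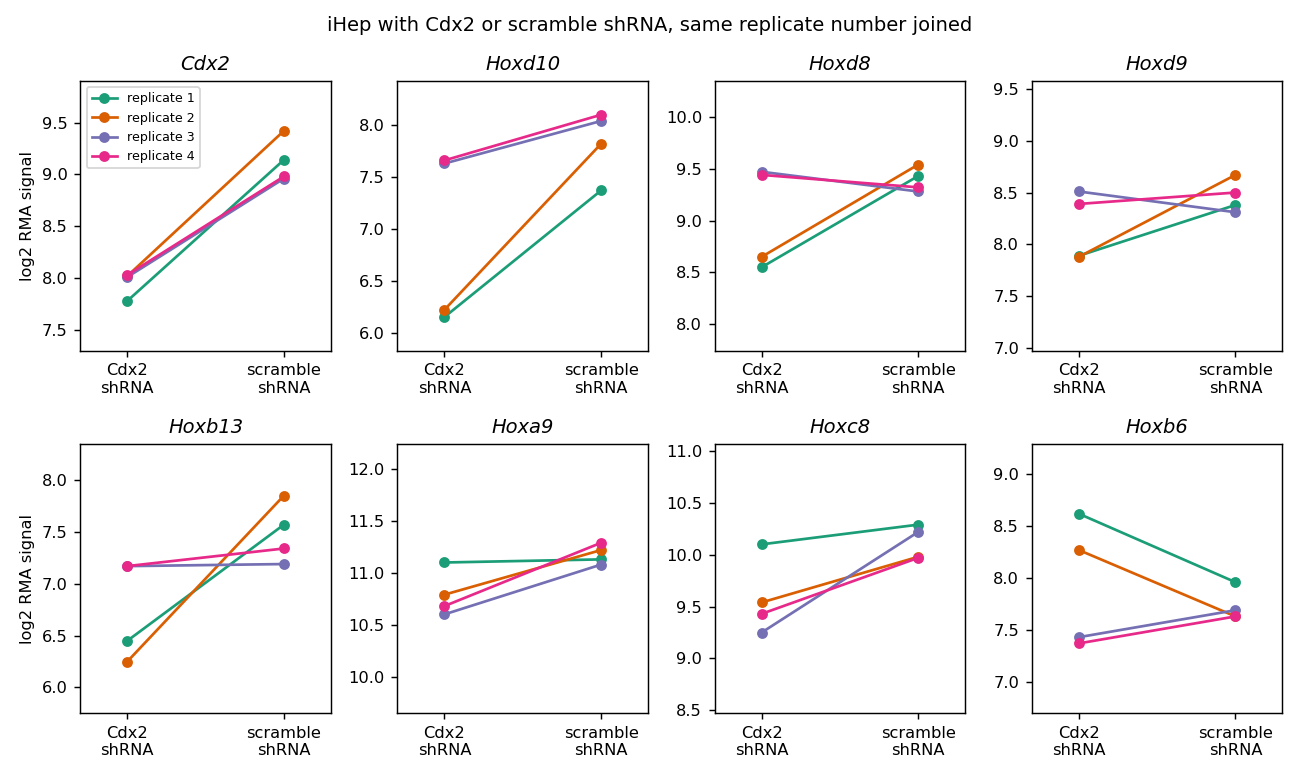
Log2 signal of Cdx2 and selected HOX genes in the 4 arrays with Cdx2 shRNA (left of each panel) and the 4 with scramble shRNA, with lines joining same-numbered arrays and the same span on every vertical axis. Cdx2 is lower in each pair, and Hoxb13 differs by −1.12 and −1.60 in pairs 1 and 2 but by −0.02 and −0.17 in pairs 3 and 4.

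In induced macrophages no member passed the threshold with either shRNA. The neighbouring genes Hoxb3, Hoxb4, Hoxb5 and Hoxb6 were above the 40th percentile in all 6 arrays, as they were in every cultured and engrafted iHep array. Hoxa7, Hoxb13, Hoxc5, Hoxc6 and Hoxc9 were also above it in all 6 iMac arrays. Ebf1 was at 7.41 and 7.21 with Ebf1 shRNA, against 8.31 and 8.38 with scramble (−1.04 ± 0.11, adjusted p = 0.00389). Pou2af1 was not lower in the arrays labelled Pou2af1 shRNA, at 11.34 and 11.26 against 11.25 and 11.06 with scramble (0.14 ± 0.12, adjusted p = 0.495), so no direction here is drawn from that label. Of 13 members tested, limma called 0 with Ebf1 shRNA, where 14.4% of all 12484 genes were called (6.21% higher and 8.16% lower), and 0 in the arrays labelled Pou2af1 shRNA, where 11.9% were called (6.79% higher and 5.14% lower). At an unadjusted p under 0.05 there were 2 with Ebf1 shRNA and 1 with the Pou2af1 label, against 31.3% and 29.0% of all genes. The members had medians of 0.14 and 0.06, against −0.04 and −0.03 over all genes, and 5 and 4 of the 13 did not overlap between groups, where 59.9% and 59.7% of all genes did not.

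Hoxb4, known for expanding blood stem cells, had 9.19 and 9.56 with Ebf1 shRNA, 9.20 and 9.25 with the Pou2af1 label, and 9.22 and 9.25 with scramble. The highest Hoxb4 value outside iMac was 8.15, in iHep line 1. Hoxb5 had 7.96 and 7.82, 8.05 and 8.07, and 7.85 and 8.04 in the same order, with no call. Hoxb6 had 8.78 and 8.25 with Ebf1 shRNA, 9.27 and 9.31 with the Pou2af1 label, and 8.97 and 9.37 with scramble. The Ebf1 difference of Hoxb6 was −0.66 ± 0.21 (adjusted p = 0.0868), and a filter at the 60th percentile (adjusted p = 0.0473) or a mean-variance trend with robust fitting (adjusted p = 0.015) made it a call. Hoxa3 had 6.00 and 6.23 with Ebf1 shRNA, 6.19 and 5.85 with the Pou2af1 label, and 5.41 and 5.76 with scramble, at 0.52 and 0.44 with no call. Hoxa9, Hoxa10 and Hoxc8, high in iHep, were under the 40th percentile in all iMac arrays on the probe sets read here, at 4.55, 3.23 and 3.48 or less. The other Hoxa9 probe set had means of 6.00 with Ebf1 shRNA, 5.81 with the Pou2af1 label and 5.70 with scramble.

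Genes that work with the clusters, or lie beside them, were counted beside the share of all genes called. That share was 48.0% in engrafted iHep against iHep and 16.8% against colon. Of 8 TALE cofactors (PBX, MEIS and PKNOX proteins) 2 rose and 4 fell in engrafted iHep against iHep, with a median of −0.64 against −0.22 over all genes. Pbx2 rose by 1.47 ± 0.20 and Pbx3 fell by 1.98 ± 0.43. Against colon, 2 were higher in engrafted iHep and 0 lower, with a median of 0.55 against 0.01, namely Meis2 by 4.92 ± 0.20 (adjusted p = 2.1e-06) and Meis1 by 1.43 ± 0.32. Of 23 Polycomb genes 4 rose and 7 fell against iHep (median −0.29), among them Pcgf2 at 3.65 ± 0.24, Rnf2, a ubiquitin ligase of the complex, at −3.36 ± 0.23 and Suz12, a subunit of the H3K27 methyltransferase, at −1.49 ± 0.26. Against colon 3 were higher and 1 lower (median 0.42), led by Cbx2 at 1.78 ± 0.44 and Bmi1 at 1.54 ± 0.30. Of 10 MLL and trithorax genes 2 rose and 2 fell against iHep (median −0.10), with Kmt2a, the MLL methyltransferase that maintains HOX expression, at 1.14 ± 0.21 and Psip1 at −2.39 ± 0.25, and 0 were called against colon (median 0.05).

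Of 11 tested genes flanking the clusters, 2 rose and 3 fell in engrafted iHep against iHep (median 0.09), with Calcoco1 beside cluster C at 2.29 ± 0.29, Skap2 beside cluster A at 1.65 ± 0.19 and Lnpk beside cluster D at −1.89 ± 0.31. Against colon 0 were higher and 3 lower (median 0.22), among them Evx1, which borders Hoxa13, at −1.46 ± 0.33. In adult against fetal liver, where 49.3% of all genes were called (31.1% lower), 3 Polycomb genes were higher and 11 lower of 23 (median −0.90 against −0.16 over all genes), and 1 of 10 MLL and trithorax genes was higher and 7 lower (median −0.95). With Cdx2 shRNA, where 2.21% of all genes were called, Scmh1 of the Polycomb list rose by 0.62 ± 0.09 (limma adjusted p = 0.0127) and Skap2 fell by 0.55 ± 0.11 (adjusted p = 0.0376), while 0 of 8 TALE cofactors and 0 of 10 MLL and trithorax genes were called.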

How the data were processed

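Each of the 25 samples was hybridised to 1 Affymetrix mouse array from 100 ng of total RNA, per the labels' protocols. The deposited values are log2 signals per probe set, computed with RMA per the submitters' processing notes, with no version given in the sources used here. They ran from 2.05 to 15.11, with column medians of 6.11 to 6.30. Of 45101 probe sets, 34945 had 1 symbol, 932 several, 9160 were not listed and 64 were controls. A gene was read from whichever of its probe sets averaged highest across the 25 arrays.

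Tests were fitted over all genes using lmFit and eBayes of limma 3.58.1 (R 4.3.3), with two-sided p-values adjusted by Benjamini and Hochberg within each comparison and a threshold of 0.05. The engrafted, iHep, colon and liver groups shared 1 model of 11 arrays, the iHep shRNA groups 1 of 8 and the iMac groups 1 of 6, with 15262, 13650 and 12484 genes. Genes entered a model when at least 2 of its arrays placed them over the array's 40th percentile. That kept 30, 23 and 13 HOX members, and members that passed only through the group where they are high had to differ. Errors are limma's standard errors (SE). Arrays hold no counts, so their number limits the precision. The labels call the iHep lines independent and do not say whether other replicates were separate cultures or animals, so p-values measure the spread between these samples, which may be technical.

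Members and lists were chosen with earlier results of these data known. Every member may be named, and each other list supplies its 4 largest called and 2 largest uncalled changes per comparison, at most. The alternatives dropped the filter or moved it to the 60th percentile, averaged the probe sets of a gene, centred arrays on their medians, added a mean-variance trend with robust fitting, fitted all 25 arrays together, blocked on replicate number, and left out single arrays. Same-numbered Cdx2 and scramble shRNA arrays deviated together (0.53, 0.32, 0.58 and 0.44, as correlations over genes). Their numbers were therefore treated as pairs in the pair differences and in the replicate block, a pairing taken from the data and not from the labels. Fits are without the block unless it is named, and the blocked value is given where it moved the calls. In data simulated for engrafted iHep against colon over 15262 genes, 79% of the genes set to change by 2 (log2) were recovered and 5% of those set to change by 1. Python 3.11.15 with matplotlib 3.10.9 made the figures.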

Additional observations from a re-analysis of the deposited data

How the results depend on the processing

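Of 89 pairs of a called HOX member and a comparison, 36 lost the call under at least 1 alternative, 12 of them only when an array was left out, counting a gene that no longer passed the filter as lost, and 0 turned direction where tested. With all 25 arrays in 1 model, engrafted iHep against colon had 15 called members in place of 9, iHep against fetal liver 20 in place of 12 and adult against fetal liver 7 in place of 4. For Cdx2 shRNA, no filter gave 1 call (Hoxc10, lower). For Ebf1 shRNA, the 60th percentile filter and the robust fit each gave 1 (Hoxb6, lower). The cause was not tested. Leaving out 1 array gave 12 to 17 called members for engrafted iHep against iHep, 4 to 12 for engrafted iHep against colon (12 without engrafted replicate 1, 5 without engrafted replicate 2, 5 and 4 without colon replicates 1 and 2), 16 to 19 for iHep against colon, 9 to 14 and 7 to 16 for iHep against adult and fetal liver, 3 to 4 for adult against fetal liver, 12 to 16 for colon against adult liver, 0 to 2 for Cdx2 shRNA and 0 to 0 for both iMac comparisons. Outside the Cdx2 shRNA model same-numbered arrays share only a number (correlations −0.15 to 0.10), and the replicate block gave 14, 7, 18, 10, 8, 3 and 16 called members in the order above and 0 in the shRNA comparisons. Crossing the fetal liver numbers, chosen after seeing the data, gave 4 for adult against fetal liver. Centring arrays moved the median of all genes between iHep and adult liver to 0.42 in place of 0.26. With probe sets averaged per gene, Hoxc6 became a call in engrafted iHep against iHep (−1.33, adjusted p = 0.00125 in limma) and in iHep against colon (1.99, adjusted p = 8.25e-05). Signals near the 40th percentile limit the size of a difference.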

Other observations

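Transcripts at the clusters that lie outside the 33 members gave further values, with no test. Hoxb5os, antisense to Hoxb5, was at 4.75 and 6.39 in engrafted iHep, against 9.35, 8.83 and 8.46 in iHep and 4.64 and 4.15 in colon, whereas Hoxb5 itself was higher in engrafted iHep than in both. With Cdx2 shRNA, Hoxb5os was at 9.35, 9.36, 9.03 and 9.30, against 8.41, 8.58, 8.53 and 8.73 with scramble, and the groups did not overlap. With Ebf1 shRNA it was at 5.67 and 5.46, against 6.67 and 6.98 with scramble. One probe set of Hoxa11os, antisense to Hoxa11, was at 5.63 and 6.85 in engrafted iHep, against 5.37, 6.76 and 5.94 in iHep and 8.21 and 7.99 in colon, and its other probe set stayed at 4.02 or less in every array.

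A probe set shared by Hoxb8 and Hoxb7 was at 3.72 and 7.14 in engrafted replicates 1 and 2, and its highest value in any other array was 5.90, with Cdx2 shRNA. The replicate with 7.14 was also the one with the higher fibroblast and leukocyte marker means, whose part was not tested.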
